A study of Mus musculus with 15 samples.

Results

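The 8 lipid-handling genes *Apoe*, *Mfge8*, *Clu*, *Lpl*, *Abca1*, *Abca2*, *Acsl3* and *Lrp1* were followed through 15 RNA-seq libraries of the mouse dentate gyrus. These 8 were looked up by symbol among 32657 gene features, of which 23117 had a count in some library, and all 8 were detected in every library and passed the filter on low counts in every comparison. They were selected on their read counts in these same libraries: all 8 were lower in the ventral dentate gyrus (vDG) input of mice labelled as conditional *Htr4* knockouts (cKO), and that contrast is given below as a description. Its calls and FDRs state how the genes were chosen and support nothing further.

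The libraries came from adult mice of 8 to 12 weeks on a C57BL/6J background. WT mice carried Drd3-Cre KI198 and Rosa26-fsTRAP, and cKO mice carried Drd3-Cre KI198, Rosa26-fsTRAP and Htr4-Floxed. Cre and the EGFP-L10a ribosomal tag were thus shared by both genotypes, and the floxed *Htr4* allele was the difference listed. The study bred WT and cKO mice from separate crosses, so differences between the crosses cannot be told apart from genotype. The driver switches the tag on in granule cells and mossy cells of the dentate gyrus and in some CA pyramidal cells. Ribosome-bound RNA was pulled down through the tag (TRAP IP) from vDG, and total RNA (input) was taken from vDG and from dorsal dentate gyrus (dDG). Each of the 3 tissue and fraction classes had 3 WT and 2 cKO libraries, none of which had any drug treatment in the labels. A library pooled 3 mice for an IP and 2 mice for an input by the sample records, while the study's methods give 1 male and 1 female per replicate, and p-values therefore describe the spread between pools. For the inputs, the source recorded is cortex, whereas titles and region fields say dentate gyrus.

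Lipids move between brain cells on lipoprotein particles. Astrocytes are the main makers of their protein parts, apolipoprotein E (*Apoe*) and clusterin (*Clu*), and the transporter ABCA1 loads cholesterol and phospholipid onto them. The particles are taken up by receptors of the LDL receptor family such as LRP1, lipoprotein lipase (*Lpl*) frees fatty acids from their triglycerides, ACSL3 activates fatty acids for storage and membrane synthesis, ABCA2 is a lipid transporter of the endosome and lysosome, and MFG-E8 (*Mfge8*) is a secreted bridge between phosphatidylserine on dying cells and the integrins of phagocytes.

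Depth ranged from 19039295 to 30451430 counts on genes per library. *Htr4* itself was counted over the whole gene, of which only exon 5 is floxed, and was higher in the libraries labelled cKO (log2 fold changes of 0.86 ± 0.16 in vDG input, 0.75 ± 0.14 in dDG input and 0.93 ± 0.17 in vDG IP, SE), so these counts do not check the genotype labels, and cKO names libraries by their label throughout. The granule cell markers *Prox1*, *Calb1*, *C1ql2*, *Dsp*, *Tdo2* and *Nrgn* summed to between 1660 and 3351 CPM (counts scaled to 1000000 per library after TMM) in all 15 libraries, and each of the 6 was above 0 in every group. Their sums overlapped between genotypes in vDG input (1660 to 2018 CPM in WT, 1945 to 2074 CPM in cKO), but were higher in WT in dDG input (2837 to 3351 against 2355 to 2732 CPM) and lower in WT in vDG IP (2390 to 2572 against 2587 to 2777 CPM). The 7 choroid plexus markers summed to between 32.8 and 151 CPM in the WT dDG inputs against 18.5 and 24.1 CPM in the cKO dDG inputs.

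The genes lie on 7 chromosomes of GRCm38 (mm10). *Apoe* (chr7:19696109-19699188) and *Mfge8* (chr7:79133768-79149060) are both on the minus strand of chromosome 7, *Abca1* (chr4:53030787-53159895) and *Lrp1* (chr10:127538161-127621148) are also on minus strands, and *Lpl* (chr8:68880491-68907448), *Abca2* (chr2:25428703-25448540), *Acsl3* (chr1:78657825-78707743) and *Clu* (chr14:65968483-65981547) are on plus strands. All are protein-coding, with merged exons from 2.14 kb for *Apoe* to 17.7 kb for *Lrp1*. Only *Acsl3* shares exonic sequence with another counted gene, 244 bp (5.6%) with *Utp14b* on the same strand, so its counts are uncertain by reads in that stretch.

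Of the 8 genes, 6 had a start-site window in the RefSeq promoter table (GRCm38.p6). The 200 bases upstream of the start site are shown for *Apoe* and *Mfge8*, whose levels were lower in cKO in both regions, and for *Abca1* and *Acsl3*, which were not called in dDG. Capitals mark matches to the E-box CACGTG, the GC box GGGCGG and the TATA motif TATAAA, each searched on both strands.
Apoe, chr7:19699189-19699388, minus strand: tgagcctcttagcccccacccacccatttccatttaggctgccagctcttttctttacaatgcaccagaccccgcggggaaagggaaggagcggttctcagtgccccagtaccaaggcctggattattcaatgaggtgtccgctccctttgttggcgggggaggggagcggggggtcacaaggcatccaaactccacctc
Mfge8, chr7:79149061-79149260, minus strand: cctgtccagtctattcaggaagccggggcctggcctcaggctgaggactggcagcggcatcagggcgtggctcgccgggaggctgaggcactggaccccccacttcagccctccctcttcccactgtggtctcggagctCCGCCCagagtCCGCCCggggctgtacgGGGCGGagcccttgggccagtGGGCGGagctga
Abca1, chr4:53159896-53160095, minus strand: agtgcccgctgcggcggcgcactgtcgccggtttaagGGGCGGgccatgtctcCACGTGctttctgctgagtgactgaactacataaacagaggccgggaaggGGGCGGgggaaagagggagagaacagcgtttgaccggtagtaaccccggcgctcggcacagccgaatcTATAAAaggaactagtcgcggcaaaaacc
Acsl3, chr1:78657625-78657824, plus strand: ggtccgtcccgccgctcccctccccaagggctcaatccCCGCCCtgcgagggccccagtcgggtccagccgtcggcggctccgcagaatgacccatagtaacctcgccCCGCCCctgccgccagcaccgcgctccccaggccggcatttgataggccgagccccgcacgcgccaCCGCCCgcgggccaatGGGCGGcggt
The *Apoe* window holds none of the 3 motifs, *Mfge8* and *Acsl3* hold 4 GC boxes each, and *Abca1* holds 2 GC boxes, 1 E-box and 1 TATA motif. A GC box lies in 4 of the 6 windows and in 31.0% of the 32851 windows of the table, while the E-box lies in 5.26% and TATAAA in 9.96% of them. GC content was 58.5% for *Apoe*, 70.5% for *Mfge8* and 75.5% for *Acsl3*. These matches are letters in a window, and no binding was measured.

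Per kilobase of exon, *Apoe* had the highest mean level in WT vDG input, at 70.7 CPM per kb, followed by *Clu* at 47.1 and *Acsl3* at 25.2 CPM per kb. *Mfge8* (7.80), *Lrp1* (6.32) and *Abca2* (5.68 CPM per kb) came next, each overlapping its neighbour in range. *Lpl* (2.21) and *Abca1* (1.52 CPM per kb) were lowest, and their ranges overlapped. In the WT vDG IP the order of levels was another one, with *Acsl3* at 15.4, *Clu* at 13.9 and *Lrp1* at 10.4 CPM per kb on top and *Apoe* in place 5 of 8 at 6.13 CPM per kb. The lengths merge the exons of all annotated transcripts, such as 10.48 kb for *Lpl*. Transcripts present may be shorter, so both orders depend on these lengths.

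**Figure D1:**
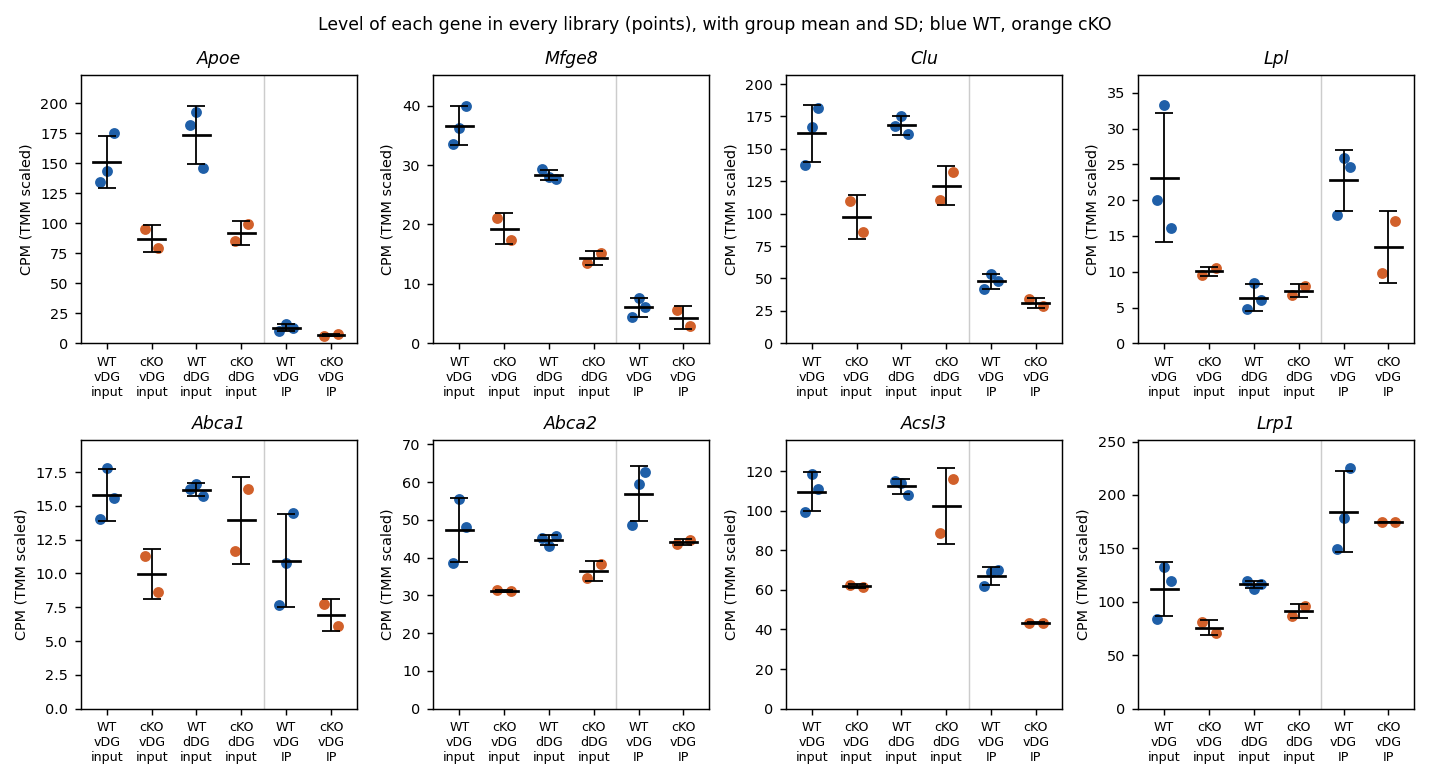
Level of each gene in each of the 15 libraries, as TMM-scaled CPM on a linear axis from 0 (points; blue WT, orange cKO), with the group mean (bar) and SD (whiskers; n = 3 WT, n = 2 cKO). In vDG input every cKO point of all 8 genes lies below every WT point, and in dDG input this holds for *Apoe*, *Mfge8*, *Clu*, *Abca2* and *Lrp1*.

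The particle proteins and the bridging protein MFG-E8 were each lower in the cKO vDG inputs. *Apoe* stood at 134, 143 and 175 CPM in the WT libraries and at 95.2 and 79.1 CPM in the cKO libraries. *Clu* stood at 138, 167 and 181 CPM in WT and at 110 and 85.6 CPM in cKO. *Mfge8* stood at 33.5, 36.3 and 40.0 CPM in WT and at 21.1 and 17.4 CPM in cKO. For none of these genes did the groups overlap, and the fitted log2 fold changes were -0.81 ± 0.14 for *Apoe*, -0.74 ± 0.14 for *Clu* and -0.94 ± 0.15 for *Mfge8* (SE, n = 3 and 2).

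Both enzymes of fatty acid handling were lower too. *Lpl* had 20.1, 33.3 and 16.1 CPM in the WT vDG inputs and 9.56 and 10.5 CPM in the cKO vDG inputs, without overlap. Its WT libraries differed most in relative terms, and its log2 fold change was the largest of the 8 genes (-1.22 ± 0.23). *Acsl3* had 99.4, 119 and 111 CPM in WT and 62.5 and 61.3 CPM in cKO, a log2 fold change of -0.84 ± 0.13 with a gap between the groups wider than the range of either.

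The transporters and the receptor had the smallest fold changes. *Abca1* had 14.0, 17.8 and 15.6 CPM in WT vDG input and 11.3 and 8.65 CPM in cKO (-0.68 ± 0.18 on the log2 scale). *Abca2* had 38.7, 55.6 and 48.0 CPM in WT and 31.4 and 31.0 CPM in cKO (-0.61 ± 0.15). The receptor *Lrp1* had 83.7, 133 and 120 CPM in WT and 80.9 and 70.8 CPM in cKO (-0.57 ± 0.16), so that the WT replicate 1 library lay close to the cKO libraries. In this contrast 2.33% of 15786 genes tested were called lower at a false discovery rate (FDR) of 0.05, edgeR's quasi-likelihood F-test, and 18.1% had every cKO library below every WT library. All 8 genes were among both, which follows from how they were chosen. *Abca1* and *Lrp1* lay just inside the threshold, at FDRs of 0.0473 and 0.0489, and no listed gene lay outside it. Without cKO replicate 1 or without cKO replicate 2 none of the 8 passed.

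The dDG inputs are separate libraries that this contrast did not use, although their results too were known when the genes were chosen. The study dissected both regions from its mice, so dDG and vDG inputs may share pools of mice. They were fitted as separate groups. In dDG, *Apoe* and *Mfge8* were lower in cKO. *Apoe* stood at 182, 193 and 146 CPM in WT and at 84.9 and 99.1 CPM in cKO, and fell by 0.92 ± 0.13 on the log2 scale (SE, n = 3 and 2; edgeR FDR = 0.0307). *Mfge8* stood at 29.2, 28.0 and 27.7 CPM in WT and at 13.5 and 15.2 CPM in cKO, and fell by 0.98 ± 0.14 (edgeR FDR = 0.0257). For both genes the lowest WT library lay well above the highest cKO library.

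These were 2 of the 4 genes called lower in dDG among 15383 tested (0.0260%). Both calls rested on single libraries. Without WT dDG replicate 2 both genes had an edgeR FDR of 0.0849, without cKO dDG replicate 1 of 0.467 and without cKO dDG replicate 2 of 0.849, while over all 5 ways of leaving out a library the log2 fold changes stayed between -1.03 and -0.80 for *Apoe* and between -1.07 and -0.90 for *Mfge8*. With all 6 groups in one fit the FDRs were 0.112 for *Apoe* and 0.204 for *Mfge8*.

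The other 6 genes were not called in dDG. *Clu* had 167, 176 and 161 CPM in WT and 111 and 132 CPM in cKO, without overlap, at a log2 fold change of -0.47 ± 0.11 (edgeR FDR = 0.157). *Lrp1* (119, 112 and 117 CPM in WT, 86.6 and 95.8 CPM in cKO, log2 fold change -0.35, FDR = 0.210) and *Abca2* (45.1, 43.2 and 45.6 CPM in WT, 34.5 and 38.3 CPM in cKO, log2 fold change -0.29, FDR = 0.347) were also without overlap. Groups with all cKO libraries below all WT libraries were found for 5 of the 8 genes and for 15.5% of all genes tested in dDG, and an unadjusted p under 0.05 for 5 of the 8 and for 12.2% of all genes. The median log2 fold change of the 8 was -0.32, against -0.02 for all genes. *Clu* passed with DESeq2 in place of edgeR (FDR = 0.0198).

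*Lpl*, *Acsl3* and *Abca1* overlapped between genotypes in dDG. *Lpl* had 4.76, 8.40 and 6.05 CPM in WT and 6.70 and 8.01 CPM in cKO, a log2 difference of 0.20 with a 95% interval from -0.30 to 0.70. *Acsl3* had 115, 114 and 108 CPM in WT and 88.7 and 116 CPM in cKO (-0.13, interval -0.40 to 0.13), with 1 cKO library above and 1 below the whole WT group. *Abca1* had 16.2, 16.6 and 15.7 CPM in WT and 11.7 and 16.2 CPM in cKO (-0.22, interval -0.57 to 0.14).

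**Figure D2:**
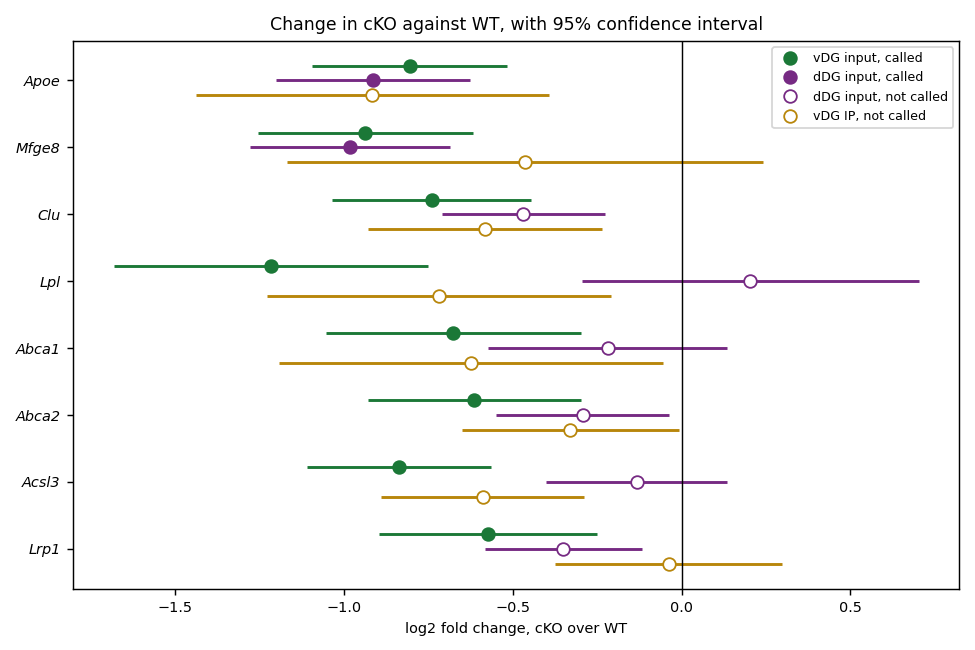
Log2 fold change of cKO over WT for each gene (horizontal axis) in vDG input, dDG input and vDG IP, with 95% confidence intervals from the edgeR fits; filled points passed the FDR threshold of their comparison and open points did not. The filled vDG input points are the choice of the genes itself. *Apoe* lies between -0.92 and -0.81 in all 3 comparisons, whereas *Lpl* lies at -1.22 in vDG input and at 0.20 in dDG input.

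Whether the cKO change differed between vDG and dDG was tested as an interaction over the 10 inputs. None of the 16306 genes tested passed in edgeR (0%), 12.3% had an unadjusted p under 0.05, and 362 passed with no filter on low counts and 260 with DESeq2. This test includes the vDG input change on which the 8 genes were chosen to be low, so the differences of the members between regions are not read here and their changes are given side by side. *Lpl* was at -1.22 in vDG and 0.20 in dDG on the log2 scale, and *Apoe* at -0.81 and -0.92.

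The regions were also compared within each genotype. Both comparisons use vDG inputs on which the genes were chosen, so their values and calls are given as a description. In WT mice *Lpl* was higher in vDG. *Lpl* was at 20.1, 33.3 and 16.1 CPM in WT vDG input against 4.76, 8.40 and 6.05 CPM in WT dDG input, 3.67-fold higher in vDG (log2 1.88 ± 0.24, n = 3 and 3, edgeR FDR = 4.25e-05). *Mfge8* was at 33.5 to 40.0 CPM in vDG against 27.7 to 29.2 CPM in dDG (log2 0.38 ± 0.12, FDR = 0.0451), a call that was lost without any one of 5 of the 6 libraries, with FDRs from 0.0751 to 0.176. Of all genes tested, 9.26% were called higher in WT vDG. The remaining 6 genes lay between -0.18 and 0.10 on the log2 scale, with overlapping groups.

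In the cKO inputs *Acsl3* was the gene called between regions. *Acsl3* was at 62.5 and 61.3 CPM in vDG against 88.7 and 116 CPM in dDG and was called lower in vDG (log2 -0.74 ± 0.13, n = 2 and 2, edgeR FDR = 0.000435), as were 8.47% of all genes. *Lpl* was at 9.56 and 10.5 CPM in vDG and 6.70 and 8.01 CPM in dDG, a log2 difference of 0.44 ± 0.19 (FDR = 0.123). *Mfge8* had higher values in both vDG libraries (log2 0.42 ± 0.16, FDR = 0.0843) and *Abca1*, *Abca2*, *Lrp1* and *Clu* lower ones, none of them called. Groups without overlap were seen for 2 genes higher in vDG and 5 lower, against 29.8% and 28.4% of all genes. Without cKO vDG replicate 1 or without cKO dDG replicate 1, *Abca1* and *Clu* were called lower too (FDRs from 0.00849 to 0.0191), and without cKO vDG replicate 2 *Mfge8* was called higher (FDR = 0.0275).

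The IP was then set against the input of the same region, to ask in which fraction each transcript was held. These comparisons use the vDG inputs the genes were chosen on. By the study's methods, input RNA came from part of the lysate used for the IP, so IP and input libraries may share pools of mice, but they were fitted as separate groups. *Apoe*, *Mfge8* and *Clu* were depleted in the IP in both genotypes. *Apoe* had 9.97, 16.5 and 12.9 CPM in WT IP, 0.0832 of its input level in the fit (log2 -3.59 ± 0.18, n = 3 and 3, edgeR FDR = 7.89e-09), and 6.14 and 7.40 CPM in cKO IP (log2 -3.71 ± 0.16). *Mfge8* had 4.41, 7.69 and 6.04 CPM in WT IP and 5.68 and 2.90 CPM in cKO IP (log2 -2.66 ± 0.19 and -2.20 ± 0.28 against input). *Clu* had 42.1, 53.6 and 47.9 CPM in WT IP and 33.9 and 28.6 CPM in cKO IP (log2 -1.82 ± 0.14 and -1.67 ± 0.15). No IP library reached any input library for these genes.

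Astrocyte markers were depleted as well. All 11 (*Gfap*, *Aqp4*, *Aldh1l1*, *Slc1a2*, *Slc1a3*, *Gja1*, *Gjb6*, *Aldoc*, *S100b*, *Fgfr3* and *Sox9*) were depleted in the WT IP, with log2 fold changes between -3.88 and -1.38 and a median of -2.75, and none was at 0 in the IP. *Apoe* lay within that range and *Mfge8* near its median. Depletion in the WT IP was called for 3 of the 8 genes and for 11.4% of all genes, and enrichment for 1 of the 8 and for 7.72%.

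*Lrp1* was the one gene of the 8 enriched in the IP in both genotypes. It had 150, 178 and 225 CPM in WT IP, 1.58-fold its input level (log2 0.66 ± 0.17, edgeR FDR = 0.0122), and 175 and 175 CPM in cKO IP, 2.26-fold its input level (log2 1.18 ± 0.11, FDR = 8.68e-06). The WT call was lost without WT vDG input replicate 1 (FDR = 0.0624). *Abca2* had 48.7, 59.6 and 62.6 CPM in WT IP, overlapping its input (log2 0.20 ± 0.15, FDR = 0.352), and 43.6 and 44.8 CPM in cKO IP, above its cKO input (log2 0.47 ± 0.12, FDR = 0.0142). In the cKO IP enrichment was called for 11.4% and depletion for 10.7% of all genes, and the *Abca2* call was lost without either cKO input library (FDRs of 0.0666 and 0.0757) and with library size alone in place of TMM (0.0984). With TMM 1159 genes were called enriched and 1711 depleted in WT and 1719 and 1624 in cKO, whereas with library size alone these were 487 and 1917 in WT and 716 and 1926 in cKO. Under that scaling the median log2 fold change of all genes was -0.13 in WT and -0.20 in cKO, against 0.0029 and -0.028 with TMM, and *Lrp1* and *Abca2* kept their sign.

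The remaining genes were held in both fractions. *Lpl* had 17.9, 25.9 and 24.7 CPM in WT IP, within the range of its input (log2 -0.09, 95% interval -0.58 to 0.40), and 9.90 and 17.1 CPM in cKO IP (0.40, interval -0.13 to 0.93). Without cKO IP replicate 1 it was called enriched in cKO (log2 0.77, FDR = 0.00418). *Acsl3* had 61.8, 69.0 and 69.9 CPM in WT IP, below every input library (log2 -0.77 ± 0.12, FDR = 0.000345), which was short of the 0.5-fold limit for depletion. *Abca1* had 7.65, 10.7 and 14.5 CPM in WT IP (log2 -0.59 ± 0.20, FDR = 0.0481), also short of that limit.

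**Figure D3:**
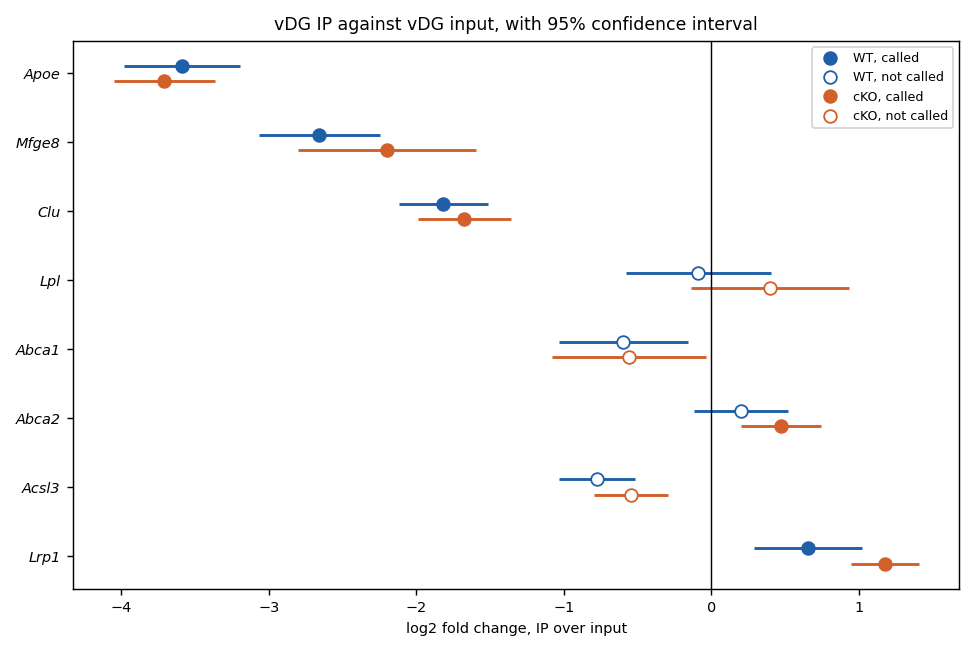
Log2 fold change of vDG IP over vDG input for each gene in WT (blue) and cKO (orange), with 95% confidence intervals; filled points passed an FDR of 0.05 with a log2 fold change above 0.32 (enriched) or below -1 (depleted). *Apoe*, *Mfge8* and *Clu* lie far to the left in both genotypes and *Lrp1* lies at 0.66 and 1.18.

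Between genotypes within the vDG IP, none of the 8 genes passed the FDR of 0.1 used for that comparison, where 60 of 14300 genes (0.420%) did. All 8 had lower fitted values in cKO, 6 of them with an unadjusted p under 0.05 against 11.7% of all genes. *Acsl3* had 43.5 and 43.2 CPM in cKO IP against 61.8 to 69.9 CPM in WT IP (log2 -0.59 ± 0.14, edgeR FDR = 0.123). *Apoe* (log2 -0.92 ± 0.24, FDR = 0.189), *Clu* (-0.58 ± 0.16, FDR = 0.201), *Lpl* (-0.72 ± 0.24, FDR = 0.281) and *Abca2* (-0.33 ± 0.15, FDR = 0.420) were likewise without overlap. Such a separation with cKO lower was seen for 5 of the 8 genes and for 16.2% of all genes tested. Because IP and input libraries may share pools of mice, these counts may depend on the vDG input contrast the genes were chosen on. They are given as a description.

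*Mfge8* (log2 -0.46, 95% interval -1.17 to 0.24), *Abca1* (-0.62, interval -1.19 to -0.06) and *Lrp1* (-0.04, interval -0.38 to 0.30) overlapped between genotypes in the IP. Calls appeared when 1 library was left out. Without WT IP replicate 1, *Apoe*, *Acsl3*, *Clu* and *Lpl* passed, at edgeR FDRs of 0.0540, 0.0636, 0.0759 and 0.0935, and without WT IP replicate 3 *Acsl3* passed (0.0962). Over all genes, 184 and 127 passed in these fits, against 60 with every library. With DESeq2 3 genes passed, *Acsl3* (FDR = 0.00902), *Apoe* (0.0388) and *Clu* (0.0454), among 374 of all genes. No gene of 16093 passed edgeR's test of a cKO change that differs between IP and input (0%), and 3.09% had an unadjusted p under 0.05. This test includes the vDG input change on which the 8 genes were chosen to be low, so the differences of the members from it are not read here.

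Astrocyte markers were lower in cKO in vDG input. In bulk tissue, fewer cells of a type and less RNA per cell cannot be told apart. In vDG input all 11 markers had lower fitted values in cKO, with a median log2 fold change of -0.61, and 5 of the 11 were called, *Slc1a2* (-0.92), *Slc1a3* (-0.72), *Gjb6* (-0.65), *Gja1* (-0.62) and *Aqp4* (-0.59), whereas *Gfap* (-0.04) and *S100b* (-0.02) were not. Their summed level was 4700 to 5355 CPM in WT vDG input and 2770 to 3006 CPM in cKO, and 901 to 1050 CPM against 769 to 780 CPM without *Slc1a2*. In dDG input 8 of the 11 were lower (median -0.22) and none was called. The dDG sums overlapped at 4301 to 5599 CPM in WT and 3234 to 4688 CPM in cKO, but without *Slc1a2* they did not, at 837 to 869 CPM in WT and 667 to 791 CPM in cKO, and neither did the geometric means of the 11 markers, at 67.9 to 78.0 and 54.4 to 67.8 CPM. In the vDG IP the sums were 1273 to 1903 CPM in WT and 1039 to 1060 CPM in cKO (median -0.49, none called).

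Marker sums of several other cell types also differed between genotypes. The 6 interneuron markers summed to 433 to 497 CPM in WT and 365 to 368 CPM in cKO vDG input, with none called, and to 166 to 193 CPM against 114 to 129 CPM in vDG IP, where *Gad2* was called among 4 tested (-0.91). The 5 CA pyramidal cell markers summed to 109 to 117 CPM against 82.4 to 87.4 CPM in vDG input, where *Pvrl3* was called (-0.59), and to 101 to 127 CPM against 78.8 to 89.4 CPM in vDG IP, with none called. In dDG input the interneuron sums overlapped, at 284 to 348 CPM in WT and 303 to 328 CPM in cKO. The dDG sums of the CA markers were 52.8 to 57.4 CPM in WT and 56.4 to 63.6 CPM in cKO. The 5 oligodendrocyte precursor markers summed to less in cKO without overlap in vDG input (79.4 to 88.6 CPM in WT, 73.2 to 75.9 CPM in cKO, *Cspg4* called at -0.91), in dDG input (72.5 to 78.3 against 66.0 to 69.6 CPM, none called) and in vDG IP (20.4 to 26.2 against 17.07 to 19.05 CPM, none called). Oligodendrocyte sums were 537.6 to 556.5 CPM in WT and 527.6 to 537.4 CPM in cKO dDG input and overlapped in vDG. The 5 markers of the meninges summed to more in cKO vDG input (16.0 to 23.7 CPM in WT, 27.6 to 41.2 CPM in cKO, *Igf2* called at 1.10) and overlapped in dDG input and vDG IP. The part of these cells in the changes of the 8 genes was not tested.

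Each gene was therefore also expressed as a ratio to the geometric mean of the 11 markers in the same library, in which every marker weighs the same. In dDG input the *Apoe* ratio was 2.15 to 2.79 in WT and 1.46 to 1.56 in cKO, and the *Mfge8* ratio was 0.375 to 0.409 in WT and 0.224 to 0.248 in cKO, so neither overlapped between genotypes. The *Clu* ratio was apart there too, at 2.15 to 2.54 in WT and 1.95 to 2.04 in cKO. In vDG input the *Apoe* ratio overlapped (1.69 to 2.15 in WT, 1.31 to 1.71 in cKO), as did those of *Clu*, *Abca1*, *Abca2* and *Lrp1*. The ratios of *Mfge8* (0.427 to 0.490 against 0.289 to 0.380), *Acsl3* (1.27 or more against 1.02 to 1.12) and *Lpl* (0.197 to 0.393 against 0.172 to 0.175) were lower in cKO there. These vDG input ratios use the levels on which the genes were chosen to be low, so they are given as a description. In vDG IP the ratios of *Apoe* (0.913 to 1.17 in WT, 0.634 to 0.835 in cKO) and *Acsl3* (4.92 to 5.66 against 4.49 to 4.87) were lower in cKO and that of *Lrp1* was higher (12.7 to 16.4 against 18.0 to 19.7), while the other 5 overlapped. The marker mean itself was 10.9 to 14.0 CPM in WT IP and 8.87 to 9.69 CPM in cKO IP. The level of *Lrp1* differed by -0.04 on the log2 scale between genotypes in the IP. The share of all genes whose ratios were apart was not computed, so these separations are descriptions. On plain levels, every cKO library lay below every WT library for 18.1% of genes in vDG input. The same held for 15.5% in dDG input and 16.2% in vDG IP. The part of the astrocyte markers in the fall of each gene was not tested.

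**Figure D4:**
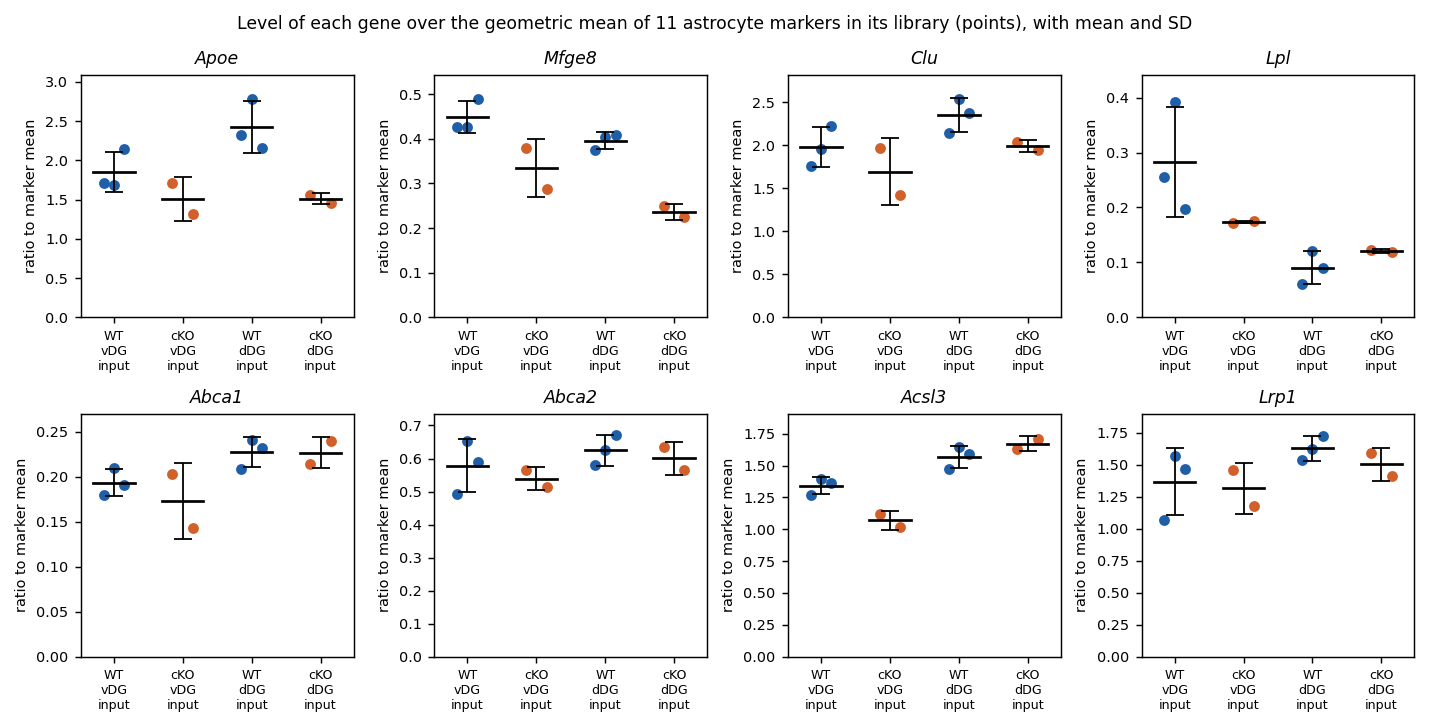
Ratio of the CPM of each gene to the geometric mean CPM of 11 astrocyte markers in the same input library (points; linear axis from 0; blue WT, orange cKO), with group mean and SD (n = 3 WT, n = 2 cKO). *Apoe* and *Mfge8* remain apart between genotypes in dDG, at 1.46 to 1.56 against 2.15 to 2.79 and at 0.224 to 0.248 against 0.375 to 0.409, as does *Clu* at 1.95 to 2.04 against 2.15 to 2.54, while *Abca1*, *Abca2* and *Lrp1* overlap in both regions.

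Microglia also make *Apoe*, *Lpl* and *Abca1*. Their 10 markers summed to 38.0 to 60.0 CPM in WT and 27.4 to 38.7 CPM in cKO vDG input, and to 45.8 to 77.3 CPM in WT and 37.1 to 40.5 CPM in cKO dDG input, and all 10 had lower fitted values in cKO in both regions with none called. The ratio of each of the 8 genes to the geometric mean of the 10 microglial markers overlapped between genotypes in vDG input, dDG input and vDG IP. Choroid plexus markers in the WT dDG inputs summed to 32.8, 98.6 and 151 CPM in replicates 1, 2 and 3, while *Apoe* in these libraries was at 182, 193 and 146 CPM. Without WT dDG replicate 3 the *Apoe* change was -1.02 (edgeR FDR = 0.00755) and the *Mfge8* change -0.99 (FDR = 0.0174). The part of microglia and of choroid plexus in these changes was not tested.

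Exonic length moved with the change in cKO over all genes, with a Spearman correlation across genes of -0.25 in vDG input, -0.15 in vDG IP and 0.17 in dDG input. Genes are not independent replicates. The longest 20% of genes had a median of -0.10 on the log2 scale in vDG input, and *Lpl*, *Abca1*, *Abca2* and *Lrp1*, all of that class, lay between -1.22 and -0.57. *Apoe*, among the shortest 20% with a median of 0.13, lay at -0.81. In dDG input the shortest 20% had a median of -0.12 and *Apoe* lay at -0.92. *Mfge8*, in the middle 20% with a median of -0.02, lay at -0.98 there, and the longest 20% had a median of 0.03.

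Other genes of lipid handling were counted in 7 lists of 130 genes, chosen with earlier results of these data known. Their vDG input counts use the libraries the members were chosen on and are given as a description. In vDG input 10 of 109 tested (9.17%, against 2.33% of all genes) were called lower and none higher, and the median log2 fold change was -0.28 against 0.01 for all genes. The called genes with the lowest FDRs were *Lrp4*, a receptor of the LDL receptor family (14.6, 19.8 and 16.6 CPM in WT, 7.53 and 9.76 CPM in cKO, log2 -0.99, FDR = 0.00700), *Itgav*, an integrin subunit that binds MFG-E8 (-0.71, FDR = 0.0102), *Hmgcs1* of the cholesterol synthesis pathway (-0.62, FDR = 0.0113) and *Lrp1b*, a close relative of *Lrp1* (-0.60, FDR = 0.0162). Receptors and their partners accounted for 3 of 21 tested, engulfment genes for 3 of 18, sterol genes for 2 of 25, and apolipoproteins for 1 of 6 and acyl-CoA synthetases for 1 of 14, while 0 of 16 ABC transporters and 0 of 9 lipases passed.

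None of the wider lists gave a call in the genotype comparisons of dDG input (0 of 106 tested) or vDG IP (0 of 103) with edgeR. An unadjusted p under 0.05 was reached by 11 genes in dDG input, or 10.4% against 12.2% of all genes, and by 19 in vDG IP, or 18.4% against 11.7%. In the WT IP, 21 of 107 genes of the wider lists were depleted and 10 of 107 enriched, against 11.4% and 7.72% of all genes. There 9 of 18 engulfment genes and 2 of 4 apolipoprotein genes were depleted, against 1 of 21 receptors and 1 of 16 ABC transporters. The difference between these lists was not tested.

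The genes most like each member over the 15 libraries, by Pearson correlation of log2 CPM among 9134 genes, differed between the members. The points share fraction, region and genotype, and the values are descriptions. *Apoe* followed *Gja1* (r = 0.99), *Gpr37l1* (0.99) and *Sdc4* (0.99), *Clu* followed *Elovl5* (0.99), *Gja1* (0.99) and *Apoe* (0.99), and *Mfge8* followed *Prelp* (0.98) and *Cspg5* (0.98). *Lrp1* followed the NMDA receptor subunits *Grin1* (0.97) and *Grin2b* (0.97) and the protocadherin *Pcdhgc5* (0.97). *Lpl* followed *Cntnap2* (0.94), *Hapln4* (0.92) and *Tmem178b* (0.92), *Abca2* followed *Cpd* (0.95), *Bcor* (0.95) and *Psap* (0.94), *Acsl3* followed *Lgr4* (0.96), *Gpm6b* (0.95) and *Ctsl* (0.95), and *Abca1* followed *Sgcb* (0.94), *Sparcl1* (0.93) and *Npc1* (0.93). Within the 10 inputs alone, *Apoe* kept an r of 0.97 with *Gja1*, of 0.94 with *Clu* and of 0.83 with *Mfge8*, and of only 0.07 with *Lpl*.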

How the data were processed

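RNA-seq was taken from 15 libraries in 6 groups, assigned by the sample titles. The authors amplified 15 ng of RNA per library, aligned reads to mm10 with STAR 2.4.2a, removed duplicate alignments with SAMtools 0.1.19-444 and counted the rest on genes with HTSeq, and deposited raw counts without normalization. The authors' tables of fold changes, p-values and normalized values from DESeq2 1.4.5 were not used here. HTSeq ran in union mode at its defaults by the study's methods, which name no strand option, and the TruSeq RNA v2 kit does not mark strand, so reads of genes that overlap on opposite strands cannot be told apart.

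The members and all gene lists were chosen with earlier results of these data known. For each comparison, its libraries were scaled with TMM, filtered with filterByExpr and tested with the two-sided quasi-likelihood F-test of edgeR 4.0.16 (R 4.3.3), with Benjamini-Hochberg FDRs over all genes tested. Thresholds were an FDR of 0.1 between genotypes in the IP and 0.05 elsewhere, and enrichment or depletion in the IP further needed a log2 fold change above 0.32 or below -1. Printed levels are CPM with TMM factors over all 15 libraries. An exact permutation test of 3 against 2 libraries cannot go below p = 0.2 (two-sided), so none was used. No molecular identifiers are named, so depth covers counting error only. Named beside the 8 genes were *Htr4*, up to 4 called genes of the wider lists with the lowest FDR per genotype comparison, and the 3 genes with the highest correlation to each member (mean log2 CPM above 3, prior count 2), of which 1 is not reported here. Single markers, the sum without *Slc1a2*, the geometric mean ratio and the printed choice of promoters were chosen after values were seen. Positions and lengths came from GENCODE M21 and promoters from RefSeq. Alternatives were DESeq2 1.42.0, its size factors, library size alone, no filter, every library at 10 counts or more, a single fit of all groups, a replicate block, other thresholds and leaving out each library; the code was tested on simulated counts. Python 3.11.15, pandas 2.3.3 and matplotlib 3.10.9 made the tables and figures.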

Additional observations from a re-analysis of the deposited data

How the results depend on the processing

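How many of the 8 genes were called depended on the settings as follows. Between genotypes in vDG IP, where none was called, DESeq2 gave 3, library size alone 1, no filter 4 and a single fit of all groups 3, and leaving out a library gave 0 to 4. Between genotypes in vDG input, with 8 called, leaving out a library gave 0 to 8, with 0 without either cKO library, 5 without WT replicate 2 and 5 without WT replicate 3. In dDG input, with 2 called, a single fit of all groups gave 0 and leaving out a library 0 to 2. In IP against input, 4 (WT) and 5 (cKO) were called, and leaving out a library gave 3 to 4 and 4 to 6. Between regions in WT, with 2 called, DESeq2's size factors and a single fit of all groups gave 1 each, and leaving out a library 1 to 2. Between regions in cKO, with 1 called, library size alone gave 2 and leaving out a library 1 to 3. For the genotype by region interaction, with 0 called, DESeq2 gave 1 of the 6 genes for which it gave an FDR (none for *Lpl* and *Abca1*), no filter 2 and leaving out a library 0 to 1. Where leaving out a library left an arm with 1 sample, that sample was assumed to vary like the other group. The cause of these changes was not tested.

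The labels do not say that replicate numbers mark shared pools, and correlations of the deviations of same-numbered libraries lay between -0.33 and 0.46, so the libraries were not paired. The 2 cKO dDG libraries are numbered differently in their titles, which were used here, and in the names of their deposited tables, and the block, these correlations and the names of the dDG libraries left out depend on that choice. With the replicate block, 5 of the 8 genes were called between genotypes in vDG input and 5 between regions in cKO, and *Lrp1* between genotypes in the IP was at 0.12 on the log2 scale.

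DESeq2 gave no FDR either for *Lpl* in dDG input or for *Mfge8* in the IP, and these values are counted by sign alone. Across all alternatives, 832 log2 fold changes of the 8 genes kept sign and call, 33 gained and 50 lost a call, and 29 changed sign, none of them called. On leaving out a library, *Lrp1* ranged from -0.16 to 0.11 between genotypes in the IP, and in dDG *Abca1* ranged from -0.47 to 0.0043 and *Acsl3* from -0.34 to 0.051. *Lpl* in IP against input ranged from -0.28 to 0.27 in WT and from -0.040 to 0.77 in cKO. Between WT regions the ranges were -0.12 to 0.052 for *Abca1*, -0.031 to 0.22 for *Abca2*, -0.080 to 0.041 for *Acsl3*, -0.18 to 0.13 for *Lrp1* and -0.13 to 0.058 for *Clu*, and with library size alone *Abca1* was at 0.0046 and *Acsl3* at 0.0055. *Apoe* ranged from -0.24 to 0.035 between cKO regions. In the genotype by region interaction *Apoe* ranged from -0.052 to 0.22 and *Mfge8* from -0.12 to 0.16, and in the genotype by fraction interaction *Apoe* ranged from -0.32 to 0.12, *Mfge8* from -0.072 to 0.90 and *Abca1* from -0.20 to 0.26.

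The count of all genes called moved by over 1.5 times too: between genotypes in dDG from 5 to 186 with DESeq2, 378 with no filter, 137 with the replicate block and 0 with a single fit of all groups, in vDG input from 385 to 644 with DESeq2, 660 with no filter and 140 with a single fit, and in the IP from 60 to 374 with DESeq2, 379 with no filter, 115 with library size alone and 470 with a single fit. In the genotype by region interaction it moved from 0 to 260 with DESeq2, 362 with no filter and 11 with the replicate block, in the genotype by fraction interaction from 0 to 12 with no filter, in WT IP against input from 2870 to 1682 with every library at 10 counts or more, and between cKO regions from 2642 to 1360 with a single fit. Leaving out a library gave 6 to 638 in vDG input, with 6 and 50 when a cKO library was left out, 0 to 184 in the IP, 0 to 130 in dDG input, 0 to 48 in the genotype by region interaction, 1894 to 3702 in cKO IP against input and 1428 to 3084 between cKO regions. With 2 cKO libraries a group, these counts depend on few samples.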
